A study of Mus with 8 samples.

Results

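The lysyl oxidase and elastic fibre genes are 10 of the 24013 genes in the count table. They were taken by name, and comprise the lysyl oxidase genes Lox, Loxl1, Loxl2, Loxl3 and Loxl4, the elastin gene Eln, the fibrillin genes Fbn1 and Fbn2, the fibronectin gene Fn1 and Sparc. All 10 had a row. RNA was sequenced from 3T3-L1 cells, a mouse preadipocyte line, infected with a lentivirus that carries a scrambled shRNA (C cells) or a Prep1 shRNA (P cells) and selected in puromycin. Cells were taken uninduced at day −2, in growth medium with calf serum, or induced at day 1, after a day in medium with 10% FBS, 1 μM dexamethasone, 0.5 mM IBMX and 1 μg/ml insulin. Days −2 and 1 therefore differ in serum and time at confluence as well as in the inducers, and these cannot be told apart here. Each of the 4 conditions had 2 biological replicas, and the P cells of the series carry 1 of the Prep1 shRNAs, so that effects of the shRNA and of Prep1 cannot be told apart.

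Lysyl oxidases are secreted copper enzymes that oxidise lysine residues of collagen and elastin, from which the cross-links of the matrix form. Elastin is the core of elastic fibres, fibrillins build the microfibrils around it, fibronectin is the scaffold on which other matrix proteins assemble, and SPARC is a secreted protein that binds collagen. Preadipocytes make a fibroblast type of matrix, which they rebuild as they turn into fat cells, and fibronectin and SPARC are both known to hold back this step in culture.

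The libraries held 20428816 to 27614353 counts. Values below are CPM, counts scaled to the TMM-adjusted library size, and 3 counts correspond to 0.107 to 0.160 CPM, a floor for counting error only. The knocked-down gene, Pknox1 (NCBI gene 18771), which encodes Prep1, was measured at 28.1 and 26.5 CPM in uninduced C cells against 17.3 and 18.3 CPM in uninduced P cells, and at 38.1 and 36.5 CPM in induced C cells against 23.6 and 23.8 CPM in induced P cells. It was lower in every P library of a day, with log2 ratios of −0.62 and −0.65 (adjusted p = 0.0558 and 0.0575, edgeR's quasi-likelihood test). The ratios of 0.652 and 0.636 were short of the ratio threshold given below, so that Pknox1 itself was not called. With a library left out, its log2 ratio was −0.67 to −0.57 at day −2 and −0.70 to −0.65 at day 1. The replicas of uninduced P cells stood farthest apart, with an SD of 0.795 of their log2 difference over 5600 well expressed genes, against 0.121 to 0.261 in the other conditions. Of the preadipocyte and fibroblast markers, all 7 were tested. They summed to 5033 and 5201 CPM in uninduced C cells, 10577 and 5947 in uninduced P cells, 7055 and 7308 in induced C cells and 6751 and 6722 in induced P cells. Of these sums, the vimentin gene Vim made up 3166 to 8013 CPM. The markers did not move together: from uninduced C to uninduced P cells, mean Thy1 went from 137 to 812 CPM and mean Cd34 from 1.76 to 0.107 CPM. Markers of macrophages, endothelium and epithelium summed to at most 8.05 CPM in a library. The adipocyte markers, of which 6 of 7 were tested, summed to 2.05 to 2.75 CPM in C cells, 22.5 to 34.1 CPM in uninduced P cells and 140 to 142 CPM in induced P cells. The muscle markers (3 of 6 tested), most of whose counts came from the smooth muscle actin gene Acta2, summed to 421 to 458 CPM in uninduced C cells, 2211 to 2793 CPM in uninduced P cells, 15.2 to 15.6 CPM in induced C cells and 102 CPM in induced P cells. The part of these markers in the results below was not tested, and in a bulk culture fewer cells of a type and less RNA per cell cannot be told apart.

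A gene was called when edgeR's quasi-likelihood test gave an adjusted p under 0.1, over the 13339 genes tested, and the ratio exceeded 2 or was below 0.5. Log2 ratios are given with their standard error (SE), which rests on a spread shared by the 4 conditions. All 10 genes passed the filter on low counts. Induction called 3 of the 10 in C cells, where Fn1 rose and Loxl2 and Loxl4 fell, against 20.4% of all genes tested (10.7% higher, 9.68% lower). It called 3 in P cells, where Loxl3, Loxl4 and Sparc fell, against 18.0% of all genes (7.65% higher, 10.4% lower). Between P and C cells, 4 of the 10 were called at day −2, with Loxl3 and Eln higher and Loxl2 and Loxl4 lower in P cells, against 6.98% of all genes (4.83% higher, 2.15% lower). At day 1 it was 3, with Eln higher and Loxl4 and Fn1 lower in P cells, against 4.06% of all genes (1.83% higher, 2.23% lower). Counted without Eln, which had 5 to 12 counts in the C libraries, 3 of 9 genes were called at day −2 and 2 of 9 at day 1. The median log2 ratios of the 10 genes were 0.08, −0.06, 0.30 and 0.01 in the same order (−0.04, −0.21, 0.16 and −0.19 without Eln), beside −0.01, 0.02, 0.01 and 0.01 over all genes tested. The replicas did not overlap for 5, 7, 8 and 9 of the 10 genes, beside 77.7%, 60.6%, 53.8% and 60.5% of all genes. Lox, Loxl1, Fbn1 and Fbn2 were called in none of the 4 comparisons. The day −2 and day 1 comparisons share libraries with those of induction and are not independent of them.

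**Figure D1:**
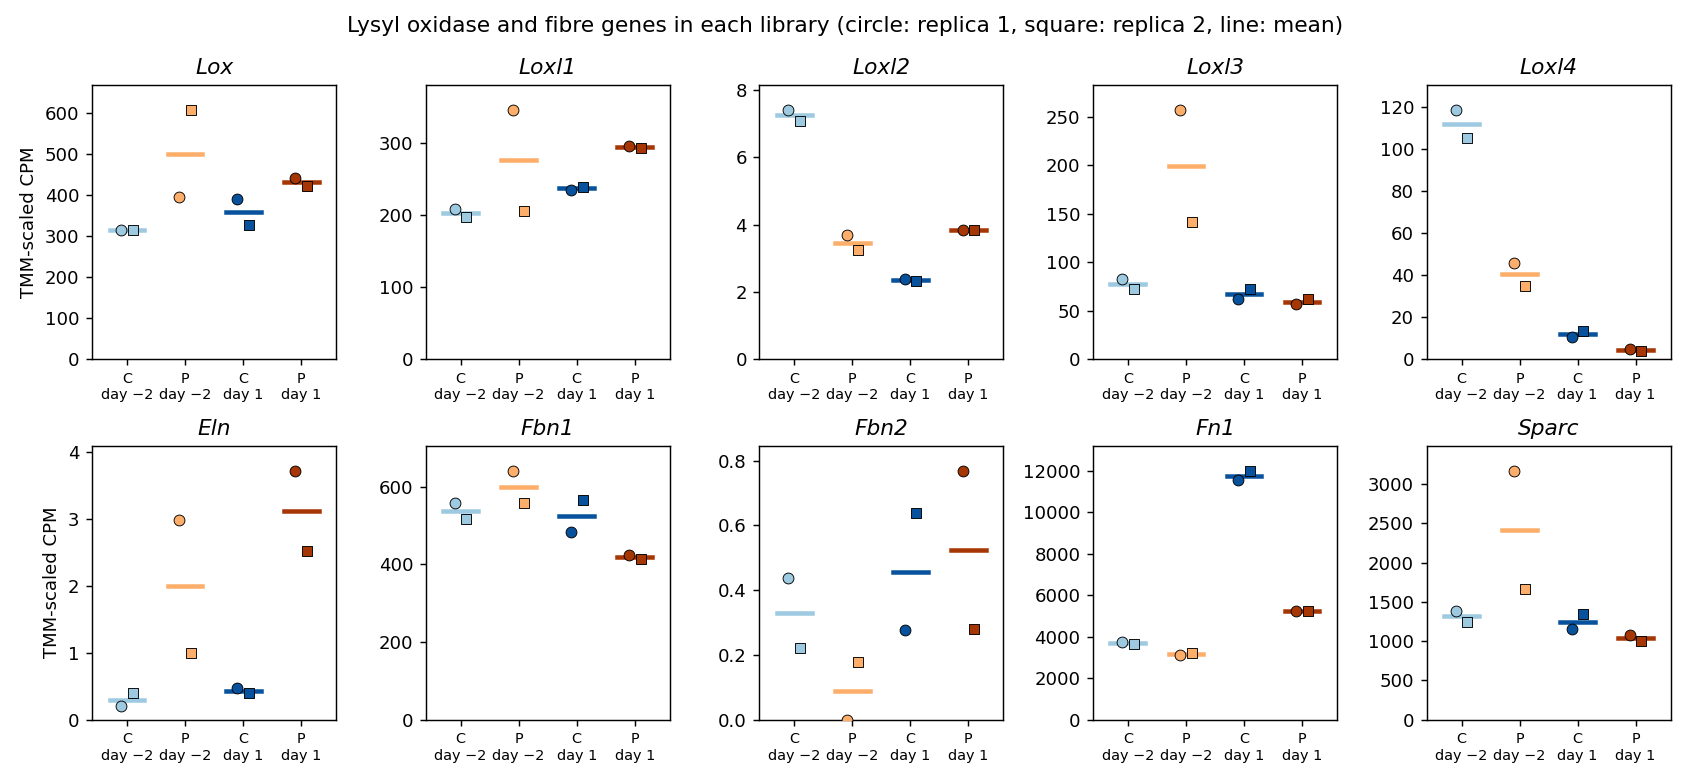
Level of each gene (y axis, TMM-scaled CPM, from 0 and with its own scale) in the 8 libraries by condition (x axis). Circles are replica 1, squares replica 2 and lines the mean of both. Loxl4 steps down from 112 to 4.42 CPM across the conditions, Fn1 stands out in induced C cells and Eln in P cells.

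Loxl4 (NCBI gene 67573), the lysyl oxidase with the largest change, fell about 9-fold by induction in both kinds of cells and was lower in P cells on both days. It had 119 and 105 CPM in uninduced C cells, 45.6 and 35.0 in uninduced P cells, 10.7 and 13.2 in induced C cells, and 4.83 and 4.01 in induced P cells. The replicas of no condition overlapped with those of another, and each of the 3 steps in this order passed an adjusted p of 0.1 (0.0101, 0.00178 and 0.0188, edgeR). Induction lowered Loxl4 9.38-fold in C cells (log2 ratio −3.23, SE 0.22, adjusted p = 2.0e-04, edgeR) and 9.09-fold in P cells (log2 ratio −3.18, SE 0.22, adjusted p = 3.3e-04). These responses differed by 0.05 on the log2 scale with a standard error of 0.30. Uninduced P cells had 2.78-fold less Loxl4 RNA than uninduced C cells (log2 ratio −1.48, SE 0.20, adjusted p = 0.0101) and 2.70-fold less at day 1 (log2 ratio −1.43, SE 0.21, adjusted p = 0.0188). From uninduced C cells to induced P cells the level fell 25.3-fold. The calls of induction held with each library left out in turn. That of day −2 was lost without replica 1 of uninduced C cells (adjusted p = 0.120, edgeR), and that of day 1 without replica 2 of C cells (0.143), replica 1 of P cells (0.157) or replica 2 of P cells (0.211) at day 1.

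Loxl2 (NCBI gene 94352), a lysyl oxidase with scavenger receptor domains that acts on basement membrane collagen, had a low level throughout and fell by induction in C cells. It had 7.41 and 7.09 CPM in uninduced C cells against 3.67 and 3.25 CPM in uninduced P cells, and 2.37 and 2.31 CPM in induced C cells against 3.85 and 3.83 CPM in induced P cells. The uninduced C libraries were thus above all others, and the induced C libraries below them. Induction lowered it 3.10-fold in C cells (log2 ratio −1.63, SE 0.21, adjusted p = 0.00236, edgeR). In P cells the log2 ratio was 0.15 (SE 0.21, adjusted p = 0.629). The difference between the responses, tested as an interaction, was 1.78 on the log2 scale (SE 0.30, adjusted p = 0.0478). Before induction, Loxl2 was 2.10-fold lower in P cells (log2 ratio −1.07, SE 0.21, adjusted p = 0.0350), and at day 1 the log2 ratio was 0.71 (SE 0.21, adjusted p = 0.146). The call at day −2, close to the ratio threshold, was lost without replica 1 or 2 of uninduced C cells (adjusted p = 0.273 and 0.242), replica 1 or 2 of induced P cells (0.109 and 0.110), and replica 2 of uninduced P cells, where the log2 ratio was −0.99. The interaction was lost without either replica of C cells of either day or of induced P cells (adjusted p = 0.213 to 0.313, edgeR), with log2 values of 1.75 to 1.81.

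Loxl3 (NCBI gene 16950), a close relative of Loxl2, was high in P cells before induction and at about the same level in the other conditions. It had 257 and 141 CPM in uninduced P cells, against 82.7 and 71.8 in uninduced C cells, 62.0 and 72.5 in induced C cells and 56.5 and 61.7 in induced P cells. Both P libraries at day −2 were above all others, though far from each other. Uninduced P cells had 2.58-fold more Loxl3 RNA than uninduced C cells (log2 ratio 1.37, SE 0.28, adjusted p = 0.0409, edgeR). Induction lowered it 3.37-fold in P cells (log2 ratio −1.75, SE 0.28, adjusted p = 0.00701), a call that held with each library left out. The log2 ratio of induction in C cells was −0.20 (SE 0.28, adjusted p = 0.637), and the interaction was −1.55 (SE 0.39, adjusted p = 0.148). With DESeq2 in place of edgeR the interaction had an adjusted p of 0.0123. The call at day −2 was lost without replica 1 or 2 of uninduced C cells (adjusted p = 0.255 and 0.326, edgeR), replica 1 or 2 of induced P cells (0.104 and 0.105), and replica 1 of uninduced P cells, where the log2 ratio was 0.88 and the adjusted p 0.00347. In a later annotation, Loxl3 overlaps Htra2, which had mean levels of 131, 161, 91.1 and 97.1 CPM in uninduced C and P cells and then in induced C and P cells, with a log2 ratio of 0.30 between uninduced P and C cells (adjusted p = 0.331). How reads of overlapping genes were counted is not given in the sources used here.

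Lox (NCBI gene 16948), the enzyme for which the family is named, and Loxl1 (NCBI gene 16949), which acts mainly on elastin, passed no test in the fit of all libraries. Lox had 314 and 315 CPM in uninduced C cells, 394 and 608 in uninduced P cells, 391 and 327 in induced C cells and 442 and 422 in induced P cells. Each P library was above both C libraries of the same day, with log2 ratios of 0.67 at day −2 (SE 0.22, adjusted p = 0.128, edgeR) and 0.27 at day 1 (SE 0.22, adjusted p = 0.681). Loxl1 had 208 and 198 CPM in uninduced C cells against 347 and 206 CPM in uninduced P cells, and 236 and 240 CPM in induced C cells against 296 and 294 CPM in induced P cells. Its log2 ratios between P and C cells were 0.45 at day −2 (adjusted p = 0.278) and 0.31 at day 1 (adjusted p = 0.639), and the replicas overlapped at day −2. In uninduced P cells, Lox was the higher in replica 2 and Loxl1 in replica 1. With a library left out, the log2 ratio between P and C cells at day −2 was 0.32 to 0.96 for Lox and 0.031 to 0.77 for Loxl1. Induction gave log2 ratios of −0.21 to 0.23 for both genes in C and P cells, and no neighbours in the order of their levels differed at an adjusted p of 0.1.

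Genes of the family can also be set against each other within a library, without a scaling of the libraries, as ratios of pairs chosen after the values were seen. Per 100 reads of Loxl1, there were 57.0 and 53.3 reads of Loxl4 in uninduced C cells, 13.2 and 17.0 in uninduced P cells, 4.54 and 5.50 in induced C cells, and 1.63 and 1.37 in induced P cells. Per 100 reads of Loxl1, there were 39.7 and 36.4 reads of Loxl3 in uninduced C cells, 74.2 and 68.6 in uninduced P cells, 26.3 and 30.2 in induced C cells, and 19.1 and 21.0 in induced P cells. Neither of these ratios overlapped between conditions. Per 100 reads of Loxl1, there were 151 and 160 reads of Lox in uninduced C cells, 114 and 295 in uninduced P cells, 166 and 137 in induced C cells, and 150 and 143 in induced P cells. The replicas of uninduced P cells thus lay below and above all others in the ratio of Lox to Loxl1, closer to each other in that of Loxl3 than in its CPM, and the Lox ratio overlapped between conditions. These are counts of reads, not corrected for the length of the genes.

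**Figure D2:**
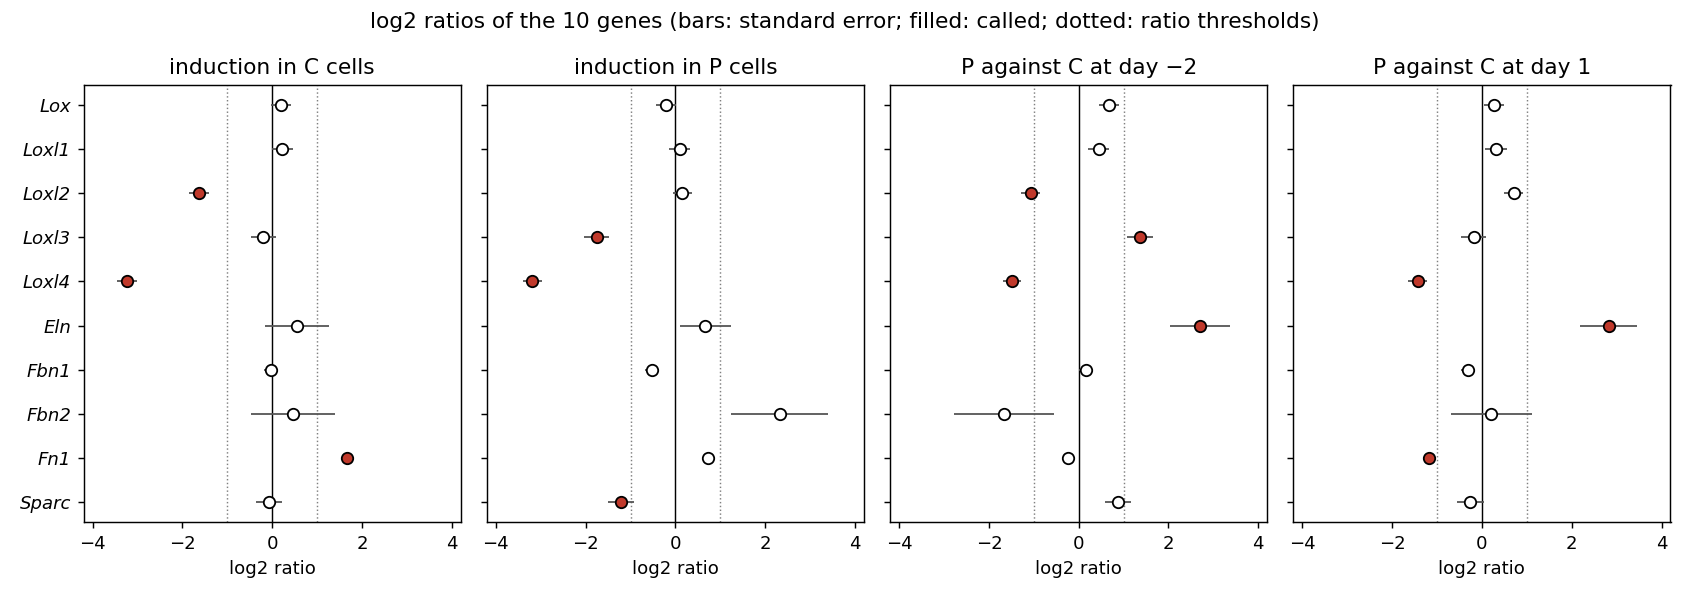
Log2 ratio (x axis) of each gene (y axis) in the 4 comparisons, from edgeR's fit of all 8 libraries. Bars are the standard error, filled points the called genes and dotted lines the ratio thresholds. Loxl4 is called lower in all 4 panels, and Eln higher only in the 2 panels of P against C cells.

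Eln (NCBI gene 13717), the elastin gene, was higher in P than in C cells on both days, at a low level. In C cells it had 5 and 9 counts at day −2 and 12 and 10 counts at day 1, which is 0.199 to 0.474 CPM. In P cells it had 56 and 28 counts (2.98 and 0.999 CPM) at day −2, and 87 and 54 counts (3.72 and 2.52 CPM) at day 1. Every P library was above every C library of either day. The level was 6.52-fold higher in uninduced P cells (log2 ratio 2.71, SE 0.67, adjusted p = 0.0678, edgeR) and 7.09-fold higher at day 1 (log2 ratio 2.83, SE 0.63, adjusted p = 0.0644). Induction gave log2 ratios of 0.55 in C cells (adjusted p = 0.614) and 0.67 in P cells (adjusted p = 0.424). Without replica 1 of uninduced P cells, the latter was 1.63 and passed (adjusted p = 0.0393). The calls between P and C cells were lost without either replica of C cells of either day or of induced P cells, with adjusted p of 0.138 to 0.383 at day −2 and of 0.142 to 0.388 at day 1, while the log2 ratios stayed between 1.75 and 3.31 with any library left out.

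Fbn1 (NCBI gene 14118), the main fibrillin of adult tissue, was called in no comparison. It had 559 and 518 CPM in uninduced C cells against 642 and 559 CPM in uninduced P cells, and 484 and 565 CPM in induced C cells against 426 and 415 CPM in induced P cells. In P cells, the day 1 libraries were below those of day −2, with a log2 ratio of −0.51 (SE 0.15, adjusted p = 0.0559, edgeR) that was short of the ratio threshold and did not pass on p without replica 1 or 2 of induced P cells (adjusted p = 0.256 and 0.288) or of uninduced C cells (0.125 each). The other 3 comparisons had log2 ratios of −0.32 to 0.16 (adjusted p of 0.378 to 0.880), and the small value at day −2 changed its sign when library totals took the place of TMM. Fbn2 (NCBI gene 14119), a fibrillin of developing tissue, had 11, 5, 0, 5, 7, 16, 18 and 6 counts in replicas 1 and 2 of uninduced C cells, uninduced P cells, induced C cells and induced P cells. The highest of these is 0.769 CPM, and at this depth no difference could be told (standard errors of 0.90 to 1.12 on the log2 scale in the 4 comparisons). With a library left out, the log2 ratio was 1.44 to 6.62 for induction in P cells and −5.96 to −0.87 for uninduced P against uninduced C cells. Without replica 2 of uninduced P cells, whose other library had 0 counts, the fitted ratios depend on the prior count.

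Fn1 (NCBI gene 14268), the fibronectin gene, rose by induction in C cells and less so in P cells. It had 3729 and 3663 CPM in uninduced C cells against 3108 and 3208 CPM in uninduced P cells, and 11523 and 11998 CPM in induced C cells against 5228 and 5215 CPM in induced P cells. The replicas lay close together and the conditions did not overlap. In induced C cells, Fn1 took 1.14% and 1.16% of all counts, against 0.549% and 0.547% in P cells. Induction raised it 3.18-fold in C cells (log2 ratio 1.67, SE 0.15, adjusted p = 4.8e-04, edgeR), a call that held with each library left out. In P cells it was 1.65-fold higher at day 1 (log2 ratio 0.73, SE 0.14, adjusted p = 0.0140), short of the ratio threshold, and without replica 1 or 2 of induced P cells the adjusted p was 0.126 and 0.134. At day 1, P cells had 2.25-fold less Fn1 RNA than C cells (log2 ratio −1.17, SE 0.14, adjusted p = 0.00923), and at day −2 the log2 ratio was −0.23 (SE 0.14, adjusted p = 0.338). The interaction was −0.94 (SE 0.20, adjusted p = 0.0967). The call at day 1 was lost without replica 1 or 2 of induced P cells (adjusted p = 0.171 and 0.180). The interaction was lost without either replica of C cells of either day or of induced P cells (adjusted p = 0.268 to 0.535), and with library totals in place of TMM, where it was −0.66.

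Sparc (NCBI gene 20692) fell by induction in P cells, from a level at day −2 that differed between the replicas. It had 3169 and 1666 CPM in uninduced P cells, against 1384 and 1246 in uninduced C cells, 1148 and 1343 in induced C cells and 1079 and 1008 in induced P cells. As with Loxl3, both P libraries at day −2 were above all others and replica 1 was the higher. Induction lowered it 2.32-fold in P cells (log2 ratio −1.21, SE 0.30, adjusted p = 0.0302, edgeR), and had a log2 ratio of −0.08 in C cells (SE 0.29, adjusted p = 0.872). P against C cells at day −2 had a log2 ratio of 0.88 (SE 0.29, adjusted p = 0.131, edgeR). With a library left out it was 0.35 to 1.26, the highest without replica 2 of uninduced P cells. The call of induction in P cells was lost without replica 1 of uninduced P cells, where the log2 ratio was −0.69, and without replica 1 or 2 of induced P cells (adjusted p = 0.157 and 0.189). It was also lost with library totals in place of TMM, where the log2 ratio was −0.99, and in the fit of the P libraries alone (adjusted p = 0.148).

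**Figure D3:**
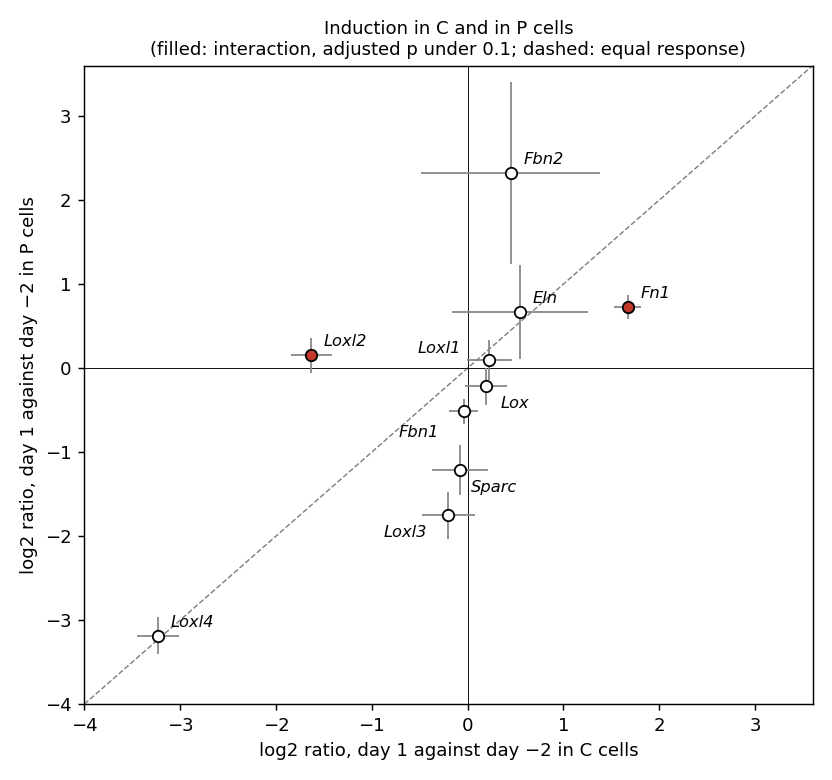
Log2 ratio of day 1 against day −2 in C cells (x axis) and in P cells (y axis) for the 10 genes, with standard errors as bars. Filled points passed the interaction test and the dashed line marks equal responses. Loxl2 and Fn1 lie off the line and are filled, Loxl4 lies on it, and Loxl3 and Sparc lie below it without passing the test.

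The interaction passed for 2 of the 10 genes, Loxl2 and Fn1, in opposite directions, beside 2.37% of all genes. With a library left out, the log2 interaction was −1.92 to −1.09 for Loxl3, −1.52 to −0.63 for Sparc and −0.72 to −0.058 for Lox. It was −0.46 to 0.26 for Loxl1, −0.60 to −0.36 for Fbn1 and 0.98 to 6.17 for Fbn2. Which of these passed depended on the replica of uninduced P cells left out, as did the number over all genes. Across the 4 conditions, 9 of 30 pairs of neighbouring levels differed at an adjusted p under 0.1. Over all genes, this threshold was passed by 35.6% and 31.4% for induction in C and in P cells, by 11.3% and 6.15% for P against C cells before and after it, by 35.9% for induced C against uninduced P cells and by 36.2% for induced P against uninduced C cells. These shares are of fixed comparisons. Neighbours are taken from the order of a gene's own mean levels and so lie closer than other pairs. The measures are therefore unlike, and no share of neighbours was computed over all genes. Loxl4 differed at all 3 of its steps, and Loxl2 and Fn1 at 2 each. For Loxl3 the step was that from P cells to uninduced C cells, and for Eln that from uninduced P cells to induced C cells (adjusted p = 0.0463, edgeR). In a fit of the 4 uninduced libraries alone, 0 of 9 genes tested were called in P against C cells, beside 81 of 12725 over all genes. In that fit, 4 of the 9 had an unadjusted p under 0.05, and the adjusted p of Loxl4, Loxl3, Loxl2 and Eln was 0.128 to 0.299. DESeq2 on all libraries called 4 of the 10 genes, beside 1279 of 12862 over all genes.

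For each gene, the gene outside the lists with the most similar profile was sought among 10845 genes, by Pearson's r of the log2 CPM over the 8 libraries. It was Dusp4, a phosphatase of MAP kinases, for Loxl4 (r = 0.997), the drug transporter gene Abcc1 for Loxl3 (r = 0.995) and Psme3 for Loxl2 (r = 0.971). It was Bgn, the gene of the matrix proteoglycan biglycan, for Lox (r = 0.972) and Abhd14a for Loxl1 (r = 0.990). For Fn1 it was P4ha2, a subunit of the collagen prolyl hydroxylase (r = 0.995), and for Sparc Ehbp1l1 (r = 0.996). Eln was closest to Mdm1 (r = 0.989), Fbn1 to Tnip2 (r = 0.982) and Fbn2 to Arl3 (r = 0.971). All these values share the same libraries and their differences in depth, and the highest of so many values is high by selection.

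The proteins that work with these genes were described by 5 lists of 50 genes in all. Of 17 genes for the assembly of elastic fibres and microfibrils, 16 were tested. Induction called 6 higher and 2 lower in C cells (median log2 ratio 0.67, beside −0.01 for all genes), and 3 higher and 3 lower in P cells (median −0.24, beside 0.02). Over all genes it called 10.7% higher and 9.68% lower in C cells, and 7.65% higher and 10.4% lower in P cells. The median in P cells was 0.10 without replica 1 of uninduced P cells. Between P and C cells, 3 were called higher at day −2 and 2 at day 1, and none lower. Over all genes, 4.83% were called higher and 2.15% lower at day −2, and 1.83% and 2.23% at day 1. Fbln5, whose protein fibulin-5 brings elastin to microfibrils, rose in C cells from 50.8 ± 1.67 to 105 ± 3.94 CPM (SD, n = 2 each; log2 ratio 1.04, adjusted p = 0.00604 by edgeR; 0.93 with library totals in place of TMM). It had 184 ± 38.6 CPM in uninduced and 186 ± 5.0 CPM in induced P cells (SD, n = 2 each), and was higher in uninduced P than in uninduced C cells by a log2 ratio of 1.86 (adjusted p = 0.00288, edgeR). In the fit of the uninduced libraries alone, that call was lost (adjusted p = 0.108). Efemp2, whose protein fibulin-4 binds lysyl oxidase and elastin, rose in C cells from 199 ± 17.9 to 538 ± 22.3 CPM (SD, n = 2 each; log2 ratio 1.43, adjusted p = 0.00196 by edgeR). Mfap4, a microfibril protein gene, rose in P cells from 0.756 ± 0.0604 to 5.70 ± 0.198 CPM (SD, n = 2 each; log2 ratio 2.91, adjusted p = 0.00103 by edgeR). The interaction was called for these last genes, named after their values were seen, and was −1.16 for Efemp2 (adjusted p = 0.0992) and 1.89 for Mfap4 (adjusted p = 0.0852).

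Of 9 genes for the maturation and copper supply of lysyl oxidases, 8 were tested. Induction called 2 higher in C cells and 3 higher in P cells, and none lower, beside 20.4% and 18.0% of all genes. Postn, whose protein periostin helps to activate lysyl oxidase, rose in C cells from 153 ± 6.26 to 794 ± 68.3 CPM (SD, n = 2 each; log2 ratio 2.37, adjusted p = 0.00425 by edgeR) and in P cells by a log2 ratio of 2.46 (adjusted p = 0.00479). The uninduced P replicas of Postn stood at 111 and 250 CPM, and the log2 ratio in P cells was 1.98 without replica 1 and 3.17 without replica 2 of them. Atp7a, the copper pump that loads secreted enzymes, rose in P cells by a log2 ratio of 1.45 (adjusted p = 0.0168; 0.102 without replica 2 of induced P cells and 0.131 without the C libraries). Without replica 1 or 2 of uninduced P cells, the log2 ratio of Atp7a was 1.03 and 2.04. Between P and C cells, 1 gene was called higher at day −2, beside 6.98% of all genes called. At day 1, beside 4.06% of all genes, 1 was called higher and 1 lower. The latter was Bmp1, the protease that cuts pro-lysyl oxidase, which stood at 438 ± 52.4 CPM in induced C cells against 191 ± 3.09 in induced P cells (SD, n = 2 each; log2 ratio −1.20, adjusted p = 0.0225 by edgeR). The call of Bmp1 was lost without replica 2 of C cells or either replica of induced P cells, with an adjusted p of up to 0.243.

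Of 8 genes for fibrillar collagens and lysine hydroxylases, all were tested. Induction called 2 higher in C cells, both of them hydroxylases, and 3 lower in P cells, all of them collagens. Over all genes it called 20.4% and 18.0%. Plod1 and Plod2, which encode lysine hydroxylases of collagen, rose in C cells by log2 ratios of 1.29 and 1.90 (adjusted p = 0.00238 and 0.00790, edgeR). Col1a1, a chain of type I collagen, had 23560 and 4882 CPM in uninduced P cells, and its fall in P cells (log2 ratio −3.23, adjusted p = 0.0171) was lost without replica 1 or 2 of induced P cells (adjusted p of up to 0.134) and without the C libraries (0.109). Without replica 1 of uninduced P cells, the log2 ratio of Col1a1 was −1.70. Between P and C cells, 1 gene, Col5a2, was called higher at day −2, and its call held in 1 of 8 fits with a library left out (log2 ratios of 0.88 to 2.90). The median log2 ratio of the list at day −2 was 1.74, and was 0.47 without replica 1 and 2.43 without replica 2 of uninduced P cells. For induction in P cells, the median of −0.96 turned to 0.14 without replica 1 of uninduced P cells. At day 1, beside 4.06% of all genes called (6.98% at day −2), 0 were called and the median was −0.52. DESeq2 called 5 at day −2 and 1 at day 1, where 2 had an unadjusted p under 0.05 in edgeR.

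Of 9 genes for receptors and partners of fibronectin, all were tested. P against C cells called 0 of them on either day, beside 6.98% and 4.06% of all genes. An unadjusted p under 0.05 was reached by 6 at day −2 and 3 at day 1, and DESeq2 called 1 and 0. Induction called 1 higher in C cells and 2 lower in P cells, beside 20.4% and 18.0% of all genes. Itgav, an integrin subunit that binds fibronectin, fell in P cells from 139 ± 22.2 to 58.8 ± 3.10 CPM (SD, n = 2 each; log2 ratio −1.24, adjusted p = 0.00310 by edgeR), and Tnc, the tenascin-C gene, by a log2 ratio of −1.40 (adjusted p = 0.00945). Of 7 relatives of Sparc, 5 were tested, and induction called 3 higher in C cells, and 1 higher and 1 lower in P cells. Over all genes it called 10.7% higher in C cells, and 7.65% higher and 10.4% lower in P cells. Of those called in C cells, Spock2 and Smoc1 had low counts. Spock2 had 2 and 3 counts in uninduced and 10 and 29 in induced C cells, and Smoc1 12 and 3 against 54 and 48. Fstl1 stood at 501 ± 10.4 CPM in uninduced C cells, 1162 ± 43.2 in uninduced P cells, 3145 ± 322 in induced C cells and 3744 ± 20.3 in induced P cells (SD, n = 2 each). It rose by log2 ratios of 2.65 in C cells (adjusted p = 1.3e-04, edgeR) and 1.69 in P cells (adjusted p = 8.1e-04), and was higher in uninduced P cells by 1.21 (adjusted p = 0.00670). The last call was lost without replica 1 or 2 of uninduced C cells (adjusted p of up to 0.109) and in the fit of the uninduced libraries alone (0.153). Unlike Sparc, Fstl1 was thus called higher by induction in both kinds of cells.

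**Figure D4:**
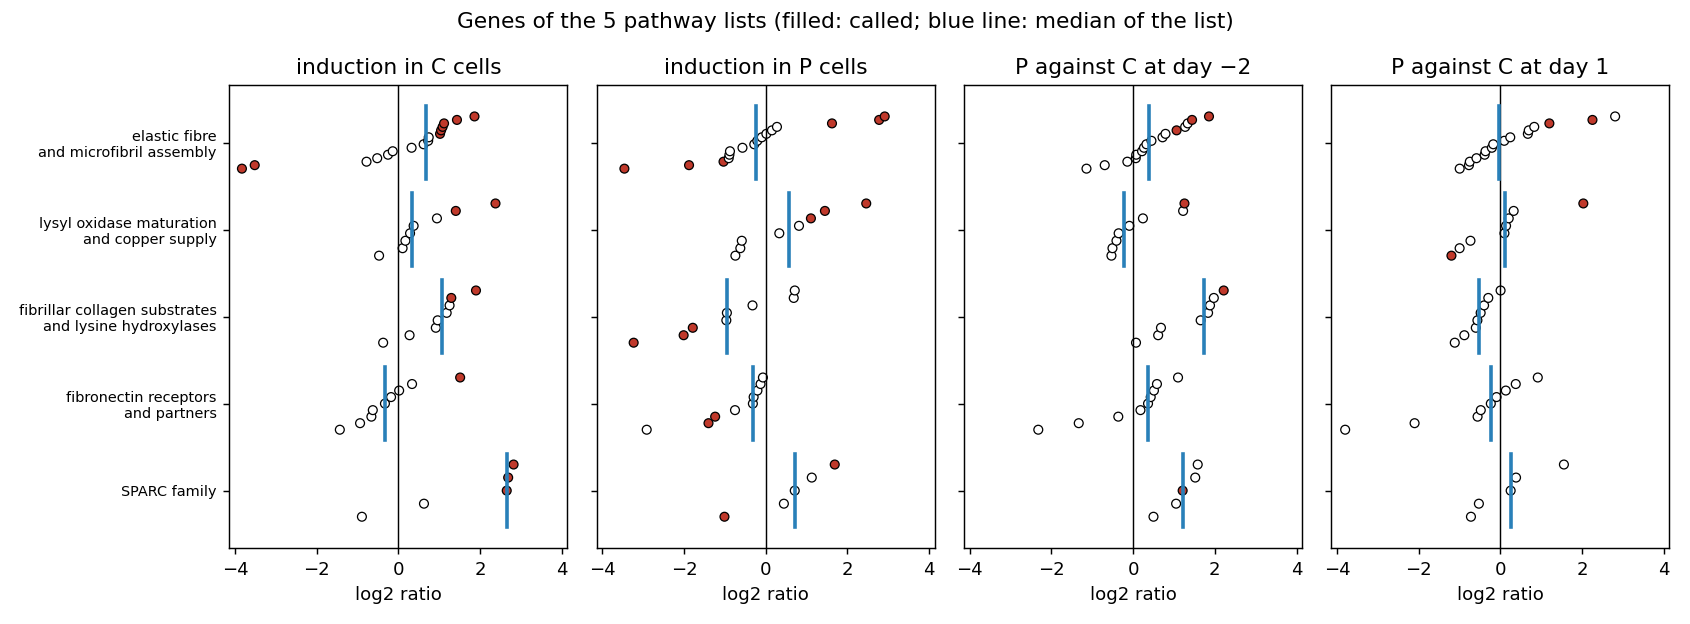
Log2 ratio (x axis) of each tested gene of the 5 lists (y axis) in the 4 comparisons. Filled points are called genes and blue lines the median of a list. The collagen and hydroxylase list has a median of 1.74 between uninduced P and C cells and of −0.96 by induction in P cells, which become 0.47 and 0.14 without replica 1 of uninduced P cells.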

How the data were processed

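Libraries were sequenced on an Ion Torrent. The authors cleaned the reads (FASTX-Toolkit), mapped them with TopHat2 2.0.9 to mm9 and counted them per gene. The deposited values are these counts, without normalization. How strand and multiply mapped reads were handled is not given in the sources used here. Symbols came from RefSeq (GRCm38.p6), which named 23929 of 24013 genes. No sequence or coordinate was used.

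Counts were filtered with filterByExpr (13339 genes left), scaled by TMM and fitted with a quasi-likelihood model of the 4 conditions in edgeR 4.0.16 (R 4.3.3), with Benjamini-Hochberg adjustment over all genes tested. Standard errors are the log2 ratio divided by the root of F. The fit estimates a spread for each gene that the 4 conditions share. A standard error or p-value thus does not measure the spread of only the groups compared. This holds also for uninduced P cells, whose replicas stood farthest apart. Log2 CPM used a prior count of 2. p-values are two-sided. An exact permutation test of 2 against 2 libraries cannot go below 0.333. The method was tested on simulated data.

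The 10 genes, the lists and the thresholds were chosen with earlier results of these data known. All 10 genes are named. A list gene was named where called, from the 3 with the lowest p per list and comparison. Replica numbers came from the labels. Replicas of a condition differed beyond sampling noise in all 4 conditions. The alternatives were DESeq2 1.42.0, its size factors or library totals, other filters, each comparison alone, a replica block, other thresholds and each library left out.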

Additional observations from a re-analysis of the deposited data

Results flagged for a closer look

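In the interaction test, 2 of the 10 genes, beside 2.37% of all genes, responded differently to induction in P than in C cells. Both calls were lost in 6 of 8 fits with a library left out. For Loxl2 the log2 ratio was 1.78 higher in P cells, with a fall in C cells and a log2 ratio of 0.15 in P cells. For Fn1 it was 0.94 lower in P cells (interaction −0.94), with log2 ratios of 1.67 in C cells and 0.73 in P cells.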

How the results depend on the processing

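Among the 10 genes, the calls of induction for Loxl4 in both kinds of cells, Loxl2 and Fn1 in C cells and Loxl3 in P cells held in every alternative tried. No called value of a gene named here changed its sign. Under library totals the median log2 ratio of all genes moved to −0.11 and 0.19 for induction in C and P cells. For P against C cells it moved to −0.18 at day −2 and 0.11 at day 1. Among the genes called, in the same order, the share that was higher moved to 45.5%, 54.5%, 55.4% and 51.8% from 52.6%, 42.4%, 69.2% and 45.0%. There, Fbn1 at day −2 went to −0.041 and the interaction of Loxl1 to 0.19, neither of them called, and 1 of the 10 genes, Loxl2, kept an interaction. With at least 10 counts in every library, which removed Eln and Fbn2, or an adjusted p under 0.05, 1 interaction was left among the 10. Over all genes, 174 interactions passed 0.05, and DESeq2 found 886. At an adjusted p under 0.05, 602 genes were called at day −2. With each comparison fitted alone, 1213 genes were called by induction in P cells, 81 at day −2 (0 of the 10 genes, 4 at an unadjusted p under 0.05 and 4 called by DESeq2 on all libraries) and 899 at day 1. Without a ratio threshold the counts were 4743 and 4192 for induction in C and P cells (5 of the 10 genes in P cells) and 1513 and 820 for P against C cells.

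The labels do not say whether a replica number marks cultures handled together. Over all genes, 5 of 6 correlations of the deviations of same-numbered replicas were negative (−0.36 to 0.21), and over well expressed genes they were positive within a day (0.44 at day −2 and 0.14 at day 1) and negative otherwise, so that pairing was not established. With the replicate block, 597 genes were called at day −2 and 117 interactions were left, 0 of them among the 10 genes (4 at an unadjusted p under 0.05, 3 called by DESeq2 without a block). The block ended both calls of Eln (adjusted p = 0.127 and 0.117, edgeR). With the day 1 numbers of P cells crossed, chosen after seeing the data, 148 interactions were left, 0 of them among the 10 genes.

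With each library left out, a lone replica is assumed to vary like the other conditions. Genes called ranged from 1664 to 3329 and from 1248 to 5000 for induction in C and P cells, from 188 to 4380 at day −2 and from 63 to 994 at day 1 between P and C cells, and from 32 to 8395 for the interaction. The highest counts of induction in P cells, of day −2 and of the interaction came without replica 2 of P cells at day −2. Among the 10 genes, 3 were called by induction in C cells throughout, 2 to 4 in P cells, 0 to 5 at day −2 and 0 to 3 at day 1 between P and C cells, and 0 to 7 had an interaction. Of the neighbouring levels, 3 to 16 differed. Values that were not called and changed sign were those of induction in C cells for Fbn1 (−0.14 to 0.10), Sparc (−0.18 to 0.061) and Fbn2 (−0.25 to 1.03), of induction in P cells for Lox (−0.50 to 0.14) and Loxl1 (−0.22 to 0.51), of day 1 for Fbn2 (−0.69 to 0.90) and of the interaction for Loxl4 (−0.13 to 0.22), Eln (−0.48 to 1.05) and Loxl1 (−0.46 to 0.26).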
